A study of Mus musculus with 8 samples.

Results

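The mouse array used here carries 60-base probes for long non-coding RNAs (lncRNAs) that its design lists as intergenic. Such a probe has no gene name. It is named only by a stretch of the mouse genome (build mm9) and a strand, F for forward and R for reverse. All non-control probes of this series with such a locus name were taken, and 174 probes on chromosome X were left out. This left 4275 of 56605 probes, at 3905 combinations of locus and strand and 3093 loci. The choice used names alone and no measured value. The position of the probe itself was given for 4184 of them, and all 4184 lay on the strand of their name.

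Intergenic lncRNAs are transcribed much as messenger RNAs are, and most are spliced and polyadenylated, but they code for no known protein. Many are made at low levels and in few cell types, and the brain expresses an unusually wide variety of them. Some act on the gene next to them, through the transcript or through the act of transcription, and others act elsewhere in the cell or have no known role. Questions asked of such loci are therefore which strand is transcribed, at what level, and whether the neighbouring gene moves with them.

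The series compared BTBRTF/ArtRbrc mice (BTBR/R), an inbred line obtained from a Japanese repository and bred in the laboratory, which is studied for behaviors resembling autism, with C57BL/6J mice (B6) bought from a breeder. RNA came from the cerebral cortex with the striatum of 4 male mice per strain, with 1 mouse per array and no treatment or engineered allele in either group. The mice were aged 4 months, but BTBR/R replicate 1 was aged 6 months. The B6 arrays lay in 1 column of the slide and the BTBR/R arrays in another, and an effect of that position cannot be told apart from strain. Nothing tied replicate numbers across strains, and p-values measure the spread between mice of these 2 cohorts.

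Signals are given on 1 scale throughout, the processed signal in log2 with the array's own 75th percentile set to 0 (scaled signal), and a change is BTBR/R minus B6 on that scale. Distances to a neighbouring gene run from the edge of the locus to the gene's probe. A probe was detected on an array when the scanner software marked it as well above background. A probe was called when the limma adjusted p over all 56605 probes was below 0.05 and the change was at least 2-fold. The 6 neuronal and 6 striatal marker genes checked were detected on all 8 arrays, and none was called. Among other marker genes, 6 of 10 immediate early genes were called higher in BTBR/R mice and both measured red blood cell genes were called lower. The part of these differences in the lncRNA results was not tested. In whole tissue, fewer cells of a type and less RNA per cell cannot be told apart.

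The following probes carry the main results, and each is written 5′ to 3′ on the strand of its locus. The first 3 come from 2 overlapping loci on one strand of chromosome 10 and were higher in BTBR/R mice at both ends of the longer locus, and capitals mark the 53 bases that the overlapping pair shared.
near Gm1553, upstream end (A_30_P01032668, chr10:81817023-81817082, forward strand): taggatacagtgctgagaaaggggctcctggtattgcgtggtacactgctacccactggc
near Gm1553, downstream end (A_30_P01028991, chr10:81863542-81863601, forward strand): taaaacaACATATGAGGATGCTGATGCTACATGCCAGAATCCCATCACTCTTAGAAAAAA
near Gm1553, downstream end (A_30_P01026481, chr10:81863549-81863608, forward strand): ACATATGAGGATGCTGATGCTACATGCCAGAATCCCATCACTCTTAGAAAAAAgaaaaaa
The next pair, on chromosome 8, fell together and shared the 51 bases in capitals.
near Rfxank (A_30_P01017714, chr8:72672447-72672506, forward strand): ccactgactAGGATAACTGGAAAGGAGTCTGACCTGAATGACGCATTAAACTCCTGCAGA
near Rfxank (A_30_P01020975, chr8:72672456-72672515, forward strand): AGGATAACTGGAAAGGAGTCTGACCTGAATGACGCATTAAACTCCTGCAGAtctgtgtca
The next pair read opposite strands of the same stretch of chromosome 1, and the 46 bases in capitals are reverse complements of each other. The forward strand was lower in BTBR/R mice and the reverse strand was not.
near Ptprc, forward (A_30_P01022208, chr1:139796208-139796267, forward strand): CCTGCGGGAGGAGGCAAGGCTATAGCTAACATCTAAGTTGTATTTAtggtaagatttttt
near Ptprc, reverse (A_30_P01017698, chr1:139796194-139796253, reverse strand): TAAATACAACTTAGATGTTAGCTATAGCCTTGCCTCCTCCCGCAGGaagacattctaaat
The 3 probes downstream of the array's probe of Eef1akmt2 and the probe downstream of that of Scoc belong to the neighbour pairs in which both sides changed. Where the transcripts of these genes end was not examined.
near Eef1akmt2 (A_30_P01020155, chr7:140018924-140018983, reverse strand): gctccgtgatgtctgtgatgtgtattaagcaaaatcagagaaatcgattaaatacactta
near Eef1akmt2 (A_30_P01033190, chr7:140018532-140018591, reverse strand): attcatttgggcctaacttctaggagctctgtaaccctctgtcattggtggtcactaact
near Eef1akmt2 (A_30_P01027377, chr7:140016237-140016296, reverse strand): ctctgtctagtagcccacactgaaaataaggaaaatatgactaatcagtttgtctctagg
near Scoc (A_30_P01033318, chr8:85955953-85956012, reverse strand): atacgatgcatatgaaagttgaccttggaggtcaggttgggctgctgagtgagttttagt
The last 3 are the largest rises among lncRNA probes detected on all 8 arrays (near Epop and Slc29a4) and a probe detected in BTBR/R mice only.
near Epop (A_30_P01019507, chr11:97484060-97484119, reverse strand): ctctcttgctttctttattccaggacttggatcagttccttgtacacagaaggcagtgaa
near Slc29a4 (A_30_P01030409, chr5:143197645-143197704, reverse strand): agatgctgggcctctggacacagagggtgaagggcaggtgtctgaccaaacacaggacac
near Ifnk (A_30_P01027466, chr4:35111553-35111612, reverse strand): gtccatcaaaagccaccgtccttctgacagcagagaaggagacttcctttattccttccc

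Across the 25 pairs of lncRNA probes that overlapped on the same strand, all 25 agreed base for base over the overlap, and 50 of the 4275 probes shared bases with another one in this way. The lncRNA probes had a median GC content of 45.0%, against 41.7% for all other probes. The letters AATAAA, the usual polyadenylation signal, searched only in the orientation in which a probe is written, occurred in 4.05% of the lncRNA probes and in 10.2% of the other probes of the same length. They occurred in 4.87% of the lncRNA probes detected on all 8 arrays. The median GC content was 45.0% both for lncRNA probes detected on all 8 arrays and for those detected on no array. No further comparison of GC content with detection was made.

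Intergenic lncRNA probes were detected less often than the rest of the array in every mouse. In B6 mice the share of lncRNA probes detected was 51.9%, 55.6%, 54.0% and 55.5%, against 65.5% to 67.7% of all other probes. In BTBR/R mice it was 41.6%, 36.1%, 36.4% and 38.0%, against 54.9% to 58.5%. The strains did not overlap in either class, and BTBR/R replicate 1, the older mouse, had the highest share of its strain. On the BTBR/R arrays a probe also had to be brighter to be detected, since the lowest detected processed signal was 36.1 to 47.1 there and 14.5 to 17.8 on the B6 arrays.

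**Figure D1:**
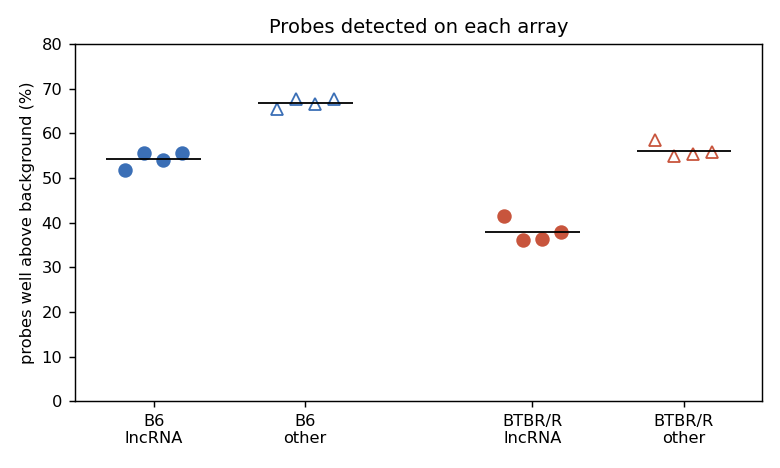
Share of probes marked as well above background on each array (y axis, percent), with 1 point per mouse, filled circles for intergenic lncRNA probes, open triangles for all other probes and lines for the mean of 4 mice. The lncRNA points lie at 51.9% to 55.6% in B6 mice and 36.1% to 41.6% in BTBR/R mice, below the other probes of the same arrays.

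Of the 4275 lncRNA probes, 1375 (32.2%) were detected on all 8 arrays, against 51.9% of the other 52330 probes, and 1477 (34.5%) were detected on none, against 25.6%. A further 364 (8.51%) were detected in all 4 B6 mice and in no BTBR/R mouse, and 3 in all 4 BTBR/R mice and in no B6 mouse. The remaining 1056 (24.7%) were detected on some arrays in another pattern. Detection on all 8 arrays ranged from 23.2% of the lncRNA probes on chromosome 18 to 39.5% on chromosome 7. Forward and reverse probes were detected on all 8 arrays alike, at 691 of 2143 (32.2%) and 684 of 2132 (32.1%).

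For 812 loci both strands carried at least 1 lncRNA probe. Both strands were detected on all 8 arrays at 140 of these loci (17.2%), a single strand at 322 (39.7%; 137 forward and 185 reverse) and neither at 350 (43.1%). At the 2281 loci with probes for 1 strand, it was detected at 694 (30.4%). Where both strands were detected, the changes between strains were only weakly related (r = 0.17, rho = 0.15 over 140 loci measured on the same 8 arrays). In 153 pairs, probes of opposite strands overlapped by at least 30 bases, so that the same piece of DNA was read in both directions, and the overlaps were exact reverse complements in 152. Both probes were detected on all 8 arrays in 21 of these pairs, exactly 1 in 39 (25.5%) and neither in 93 (60.8%). In 3 of the 21 pairs detected on both strands 1 probe was called, and in none were both called, where 2.2% of all probes detected on 8 arrays were called.

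Between the strains, 1132 lncRNA probes were called (26.5%, against 22.4% of all probes on the array). Of these, 1032 were called higher in BTBR/R mice (20.2% of all probes were) and 100 were called lower (2.27% of all probes were). The first count consisted mostly of probes without detected signal, since 911 of the 1032 were detected on no array. Among all probes of the array that were detected nowhere, 67.7% were called higher, and among such lncRNA probes 61.7% were. Their median scaled signal was -7.14 in B6 mice and -5.79 in BTBR/R mice, not well above background on any array. With a floor at the highest detection limit, 27 lncRNA probes were called higher and 21 lower. Quantile normalization gave 58 higher and 139 lower. The description below therefore rests on the detected probes.

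Of the 1375 lncRNA probes detected on all 8 arrays, 40 were called (2.91%, against 2.2% of all probes detected on 8 arrays), 29 higher in BTBR/R mice (2.11%, against 1.04%) and 11 lower (0.80%, against 1.16%). Over the 1375 probes the change had a median of -0.02, with 5th and 95th percentiles of -0.44 and 0.57, against -0.46 and 0.45 for the other detected probes. An adjusted p below 0.05 without regard to size was reached by 376 (27.3%), 193 higher and 183 lower, against 26.9% of the other detected probes. The fold among the 40 called ran from 2.05 to 9.62 with a median of 2.43, and 6 exceeded 4-fold. Of the 29 that rose, 20 lay on the reverse strand and 9 on the forward strand. Of the 11 that fell, 4 lay on the reverse strand and 7 on the forward strand. With normexp background correction 18 of the 40 remained called, 15 higher and 3 lower, and all 40 kept their direction.

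The largest rise among lncRNA probes detected on all 8 arrays lay at chr11:97457180-97487074 (reverse strand), 1766 bp downstream of the nearest probe of Epop, which encodes a partner of the polycomb repressive complex. Its scaled signal was -2.89, -2.62, -2.91 and -2.95 in the 4 B6 mice and 0.16, 0.70, 0.41 and 0.41 in the 4 BTBR/R mice. Every BTBR/R mouse was above every B6 mouse, and the change was 3.27 ± 0.13 (SE), a 9.62-fold rise (limma adjusted p = 6.9e-06). Epop itself changed by -0.22 ± 0.07. The locus chr5:143196275-143207575 (reverse strand) contains a probe of Slc29a4, a monoamine transporter gene on the other strand. Its lncRNA probe measured -4.29, -4.28, -4.16 and -4.57 in B6 mice and -1.37, -1.49, -1.34 and -1.13 in BTBR/R mice, a rise of 7.98-fold (change 3.0 ± 0.11 (SE), adjusted p = 4.9e-06 by limma). The size depended on the processing, since the change was 2.22 with a floor at the highest detection limit and 1.70 with normexp. Slc29a4 changed by 0.26, and another lncRNA probe of the same locus and strand, 6167 bp away, changed by 0.45 without reaching the threshold. A probe of the gene Tnrc18 on the same strand of the locus, 3030 bp away and detected on all 8 arrays, changed by 0.005.

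Near Fn1, the fibronectin gene, an lncRNA probe at chr1:71730016-71740391 (reverse strand) measured -4.02, -4.40, -4.44 and -4.33 in B6 mice. In BTBR/R mice it measured -3.40, -1.23, -0.43 and -1.71, the widest spread among the 16 leading probes, with replicate 1 lowest. The groups still did not overlap, and the rise was 6.09-fold (change 2.61 ± 0.58 (SE), adjusted p = 0.0094 by limma). It was not called with a floor at the highest detection limit. Near Ckap4, a gene for a membrane protein of the endoplasmic reticulum, the probe at chr10:84005221-84022896 (reverse strand) measured -2.32, -2.65, -2.59 and -2.58 in B6 mice and 0.11, 0.17, -0.20 and -0.03 in BTBR/R mice, a 5.85-fold rise. The brighter probe of Ckap4 itself was detected in all B6 mice, at -2.91 to -2.51, and in the older BTBR/R mouse, where it measured -2.62 and lay within the B6 range. It was not well above background in the other BTBR/R mice, and over the strain it was called lower, with a bound of 1.59-fold. The gene's dimmer probe was not called. Near Wnt7b, the gene of a secreted Wnt ligand, the probe at chr15:85412264-85549139 (reverse strand) measured -3.02, -3.45, -3.10 and -3.24 in B6 mice and -0.88, -0.89, -0.82 and -0.81 in BTBR/R mice. Its rise was 5.10-fold (change 2.35 ± 0.10 (SE)), while Wnt7b changed by 0.18 and a second same-strand probe 66567 bp away by 0.11. The remaining leading rises lay near Cnot6l, a deadenylase gene, at 3.69-fold, and near H2ac12, a histone gene, at 3.50-fold. With the floor the change near Cnot6l was 1.28, and with normexp 1.01. Near Cnot6l, 3 probes on the other strand of the locus were detected and changed by -0.05 to 0.03.

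The largest fall among detected lncRNA probes was the forward probe near Ptprc at chr1:139795171-139796306 (forward strand). It measured -1.07, -0.97, -0.95 and -0.75 in B6 mice and -3.16, -2.5, -2.69 and -1.63 in BTBR/R mice, a fall of 2.95-fold (change -1.56 ± 0.30 (SE), limma adjusted p = 0.0048). The reverse probe over the same bases, printed above, measured -1.60, -1.38, -1.33 and -1.38 in B6 mice and -1.08, -1.04, -1.21 and -1.14 in BTBR/R mice, a change of 0.31 ± 0.07 (SE) in the other direction. The strand with the fall was thus lower in every BTBR/R mouse, and the opposite strand was slightly higher. Ptprc, the gene of the leukocyte surface protein CD45, lay 163783 bp away on the other strand. Its brighter probe, detected in 4 B6 mice and 1 BTBR/R mouse, was 2.73-fold lower as measured, and the detection limits gave no separate bound. The dimmer probe of Ptprc was detected on some arrays only and was not called. A second lncRNA probe between that locus and Ptprc, at chr1:139856545-139857204 (forward strand), was detected in B6 mice only.

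Near Srp9, a gene of the signal recognition particle, the lncRNA at chr1:183951156-183986156 (forward strand) measured 2.92, 2.80, 2.85 and 2.40 in B6 mice and 1.56, 0.89, 1.39 and 1.19 in BTBR/R mice, a fall of 2.79-fold. Near Rfxank, a regulator of class II histocompatibility genes, the 2 overlapping probes printed above changed by -1.24 ± 0.05 (SE) and -1.03 ± 0.08 (SE). They share 51 bases and are not independent of each other. At the same locus and strand, probes 1362 bp and 6691 bp away changed by -0.16 and -0.09, and the probe of 2310045N01Rik, 3974 bp away, by -0.41 ± 0.05 (SE), with an adjusted p of 0.0004 by limma and short of 2-fold. Near Igsf11, an adhesion protein gene 957221 bp away, the probe at chr16:39984031-40081556 (reverse strand) measured 1.84, 2.07, 2.35 and 2.14 in B6 mice and 1.03, 1.13, 0.84 and 0.87 in BTBR/R mice, and a probe on the other strand changed by 0.35. The probe near Tcf4, a transcription factor gene, fell by 1.09 on the log2 scale. The probe near Mrpl36, a mitochondrial ribosomal protein gene, fell by 1.14 with an SE of 0.36. It measured -0.54, -0.71, -0.48 and -0.93 in B6 mice and -1.42, -2.85, -1.07 and -1.86 in BTBR/R mice, and the strains came within 0.14 of each other. Its call ended with quantile normalization, with the floor and with the methods' t-test, each at a change of -1.14, and when any B6 mouse or BTBR/R replicate 2 or 4 was left out, with changes of -1.22 to -0.79, the last without BTBR/R replicate 2. The reverse probe near Mrpl36, which shares 58 bases of that stretch, was far brighter. Its mean scaled signal was 5.63 in B6 mice and 5.42 in BTBR/R mice, a change of -0.21. The call near Tcf4 ended without B6 replicate 3 or BTBR/R replicate 2, where the change was -1.0. With normexp background correction the falls near Rfxank, Tcf4 and Mrpl36, and those near Eef1akmt2, Slc39a11 and Zfp273 described below, were not called, with changes of -0.87 to -0.58.

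**Figure D2:**
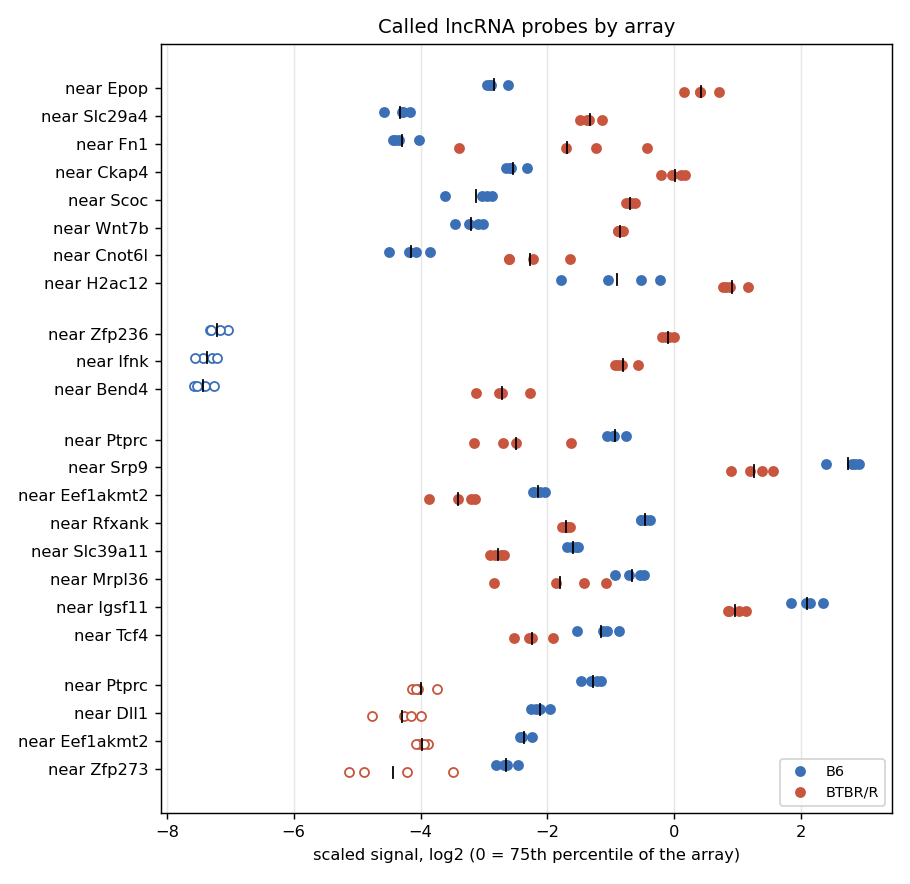
Scaled signal (x axis, log2, 0 is the 75th percentile of the array) of 23 called lncRNA probes, named by the neighbouring gene, with 1 point per mouse and a black bar at the mean of 4. From the top the blocks are the 8 largest rises among probes detected on all 8 arrays, 3 probes detected in BTBR/R mice only, the 8 largest falls, and 4 probes detected in B6 mice only; open points are groups in which no array detected the probe.

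Some loci held several probes, and a change could be set against others of the same locus and strand. Of the 40 called probes detected on all 8 arrays, 11 had at least 1 other probe on the same strand of the locus, lncRNA probe or annotated, that was also detected on all 8 arrays and did not overlap them. For 4 of the 11, at 3 loci, such a probe was called in the same direction. The other probes, 24 in all, changed by -1.18 to 1.38. On the other strand, 12 of the 40 had a probe so detected in the locus. None of those 21 probes was called, where 2.2% of all probes detected on 8 arrays were, so few calls could be looked for among so few probes. Over all 71 loci with at least 2 detected lncRNA probes on 1 strand, the changes of the first 2 had r = 0.47 and rho = 0.36 and differed by a median of 0.11. Both were called at 1 locus and at least 1 at 3 loci, beside the same 2.2% of all probes detected on 8 arrays.

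The locus where both were called is chr10:81816994-81863610 (forward strand), and the neighbouring gene probe, of Gm1553, lay 85797 bp away and was detected on no array. Its upstream-end probe measured -1.86, -1.79, -1.86 and -2.03 in B6 mice and -0.54, -0.56, -0.61 and -0.33 in BTBR/R mice (change 1.38 ± 0.08 (SE)). Its downstream-end probe, 46526 bp away, measured 0.76, 0.92, 0.90 and 0.66 in B6 mice and 1.97, 1.92, 1.96 and 1.77 in BTBR/R mice (change 1.10 ± 0.08 (SE)). Both ends were higher in every BTBR/R mouse, at 2.59-fold and 2.14-fold, and the third probe, which overlaps the latter and is named by the shorter locus chr10:81846505-81863606 (forward strand), rose by 1.07 ± 0.06 (SE). Between the ends lie 2 probes of an annotated transcript, ENSMUST00000165906, on the same strand, which changed by -0.16 and 0.95 and were not called. Near Slc39a11, a zinc transporter gene, the lncRNA probe at chr11:112898724-113062945 (reverse strand) fell by 1.19 ± 0.07 (SE) and the probe of 2610035D17Rik, an annotated lncRNA gene in the same locus 12082 bp away, by 1.18 ± 0.07 (SE). Other lncRNA probes of that locus, 17942 and 18177 bp away, changed by -0.04 and -0.66. Near Hmgn3, a chromatin protein gene, the probe A_30_P01030877 rose by 1.22 and the probe of Gm38398, 62 bp away, by 1.25. At the other loci no second probe that was detected on all 8 arrays and did not overlap the first was called. Among same-strand probes detected in B6 mice only, 2 were called lower. The first lies near Eef1akmt2 and is described below. The other, of BX524511, lies 2445 bp from a lncRNA probe near Blcap that rose by 1.07, and its fall was at least 12.9-fold. Near Grk5 the lncRNA probe rose by 1.38 while 4 same-strand probes, 3 of them of the gene Zfp950, changed by -0.53 to -0.28.

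**Figure D3:**
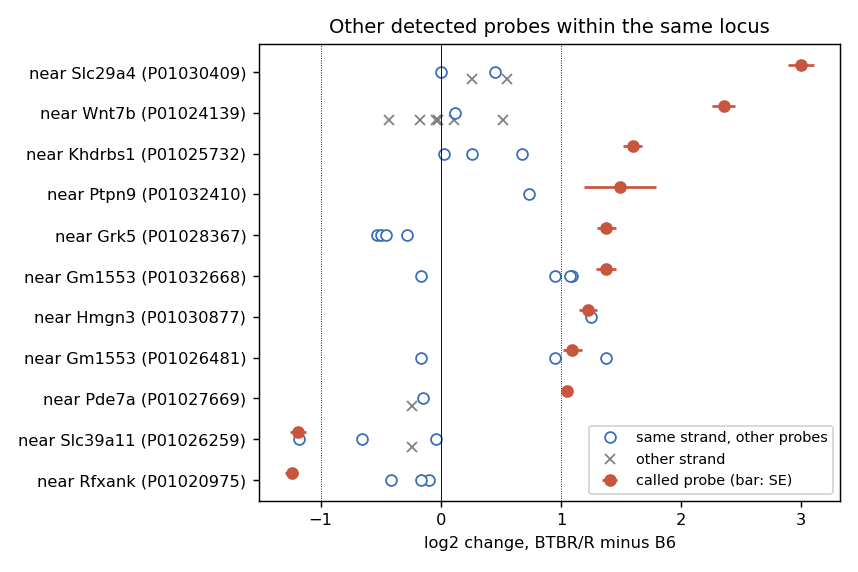
Log2 change between strains (x axis, BTBR/R minus B6) for the 11 called lncRNA probes with another detected probe on the same strand of their locus, named by neighbouring gene and probe. Red points with SE bars are the called probes, open circles other same-strand probes that do not overlap them, and crosses probes of the other strand; the dotted lines mark 2-fold, and open circles pass them near Gm1553, Hmgn3 and Slc39a11.

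Probes detected in a single strain give only a bound on the change. Of the 364 lncRNA probes detected in all B6 mice and in no BTBR/R mouse, 67 were called lower (18.4%, against 20.9% of all probes with that pattern). For 4 of the 67 the bound reached 2-fold, and for 34 no fold could be given. The largest bound was that of the second probe near Ptprc, which measured -1.16, -1.21, -1.46 and -1.31 in B6 mice and -4.13, -4.04, -3.74 and -4.08, not well above background, in BTBR/R mice. The fall was at least 5.36-fold by the limits of the BTBR/R arrays, with a limma adjusted p of 7.3e-06. With the floor the change was -2.26, and with normexp -1.54. The probe near Dll1, the gene of a Notch ligand, at chr17:15357376-15385701 (forward strand) was at least 3.0-fold lower. The probe near Zfp273, a zinc finger gene, was at least 2.04-fold lower, a call that a floor at the highest detection limit ended.

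All 3 lncRNA probes detected in BTBR/R mice alone were called higher, as were all 24 probes of the array with that pattern (100%), the 3 included. Near Ifnk, the gene of an epithelial interferon, the probe at chr4:35106125-35127700 (reverse strand) measured -0.56, -0.83, -0.93 and -0.88 in the 4 BTBR/R mice, and -7.30, -7.21, -7.43 and -7.56, not well above background, in the B6 mice. The rise was at least 20.4-fold by the detection limits of the B6 arrays, with a limma adjusted p of 1.6e-07. With a floor at the highest detection limit of all arrays the change was 2.74, and with normexp 2.68, both smaller than that bound. A probe on the other strand of the locus, offset by 38 bp, was detected on all 8 arrays and changed by 0.11. Ifnk itself was detected on some arrays only and was not called. Near Zfp236, a zinc finger gene, the probe at chr18:82862340-82875566 (forward strand) measured -0.19, -0.12, -0.01 and -0.09 in BTBR/R mice. By the detection limits of the B6 arrays it was at least 33.1-fold higher. With the floor the change was 3.44, and with normexp 3.20, again smaller than the bound. A same-strand probe 4062 bp away in that locus changed by -0.26. Probes of Zfp236 itself disagreed, since the brightest changed by -1.37, another by 1.04, and the third, called lower, was detected in B6 mice only. Near Bend4 the bound was 5.40-fold, and with a floor at the highest detection limit that probe was not called. Among probes with another detection pattern, 89 were called higher (8.43%, against 10.5% of all such probes) and 22 lower (2.08%, against 2.32%). The bound was at least 2-fold for 34 of the 89 and for 8 of the 22. The largest bounds, chosen after their values were seen, lay near Zfp36l1 (at least 31.4-fold) and near Lemd1 (at least 25.1-fold), each detected in all BTBR/R mice and 1 B6 mouse. With the floor their changes were 3.73 and 3.07, and with normexp 3.05 and 2.57.

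For the brightest detected lncRNA probes the values of both strains overlapped. By mean scaled signal the 5 brightest lay near Akap11, Ppm1a, Washc2, Riok2 and P2ry2. The probe near Akap11 measured 7.46, 7.39, 7.55 and 7.39 in B6 mice and 7.38, 7.46, 7.31 and 7.36 in BTBR/R mice. Over the 5, the change ran from -0.07 to 0.07 and the adjusted p by limma was 0.23 to 0.88. For the called probes detected on all 8 arrays, the median scaled signal was -2.75 in B6 mice and -0.89 in BTBR/R mice over the 29 that rose, and -0.84 and -1.90 over the 11 that fell.

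The neighbouring gene of each lncRNA was taken as that of the nearest probe for a protein-coding RefSeq transcript. The median distance was 24513 bp, with quartiles of 7330 and 67902 bp, and the 4275 lncRNA probes had 1658 different neighbours. For 4240 of the probes the neighbour's accession was in the reference gene table. Detection of the lncRNA varied with distance and strand. Within 10 kb of the neighbour and on its strand, 231 of 596 lncRNA probes (38.8%) were detected on all 8 arrays, against 149 of 518 (28.8%) on the other strand. Where the neighbour's probe lay inside the locus, the shares were 40 of 77 (51.9%) on the same strand and 34 of 97 (35.1%) on the other. At 10 to 50 kb the order turned, with 251 of 817 (30.7%) on the same strand and 255 of 784 (32.5%) on the other, and beyond 50 kb the shares were 31.7% and 28.1%. Within 10 kb on the same strand the share was 39.6% downstream and 35.8% upstream of the neighbour's probe. Of the 198 lncRNA probes next to 1 of 75 genes of developmental transcription factor families, 34.3% were detected on all 8 arrays, against 32.1% of the others. Of the 68 so detected, 2 were called, near Tcf4 and Klf14, where 2.2% of all probes detected on 8 arrays were. These shares are descriptions, since many probes share a locus or a neighbour.

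The strain changes of lncRNAs and of their neighbouring genes were nearly unrelated as a whole. In 1149 pairs both were detected on all 8 arrays, and the changes had r = 0.04 and rho = 0.06, described without a test because all pairs share the same 8 arrays. In 34 of these pairs the lncRNA was called and in 12 the neighbour was, where 2.2% of all probes detected on 8 arrays were, and 2 pairs held both. Beside the 34 called lncRNAs, 30 neighbours changed by less than 0.5. For the 37 pairs in which the neighbour's probe lay inside the locus on the same strand, r was 0.45 and rho 0.44, and neither partner was called in any. For same-strand pairs up to 10 kb apart, those 37 included, r was 0.05 and rho 0.22 over 251 pairs. For opposite-strand pairs up to 10 kb apart, r was -0.02 over 158 pairs, and beyond 10 kb r was 0.04 over 740 pairs.

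**Figure D4:**
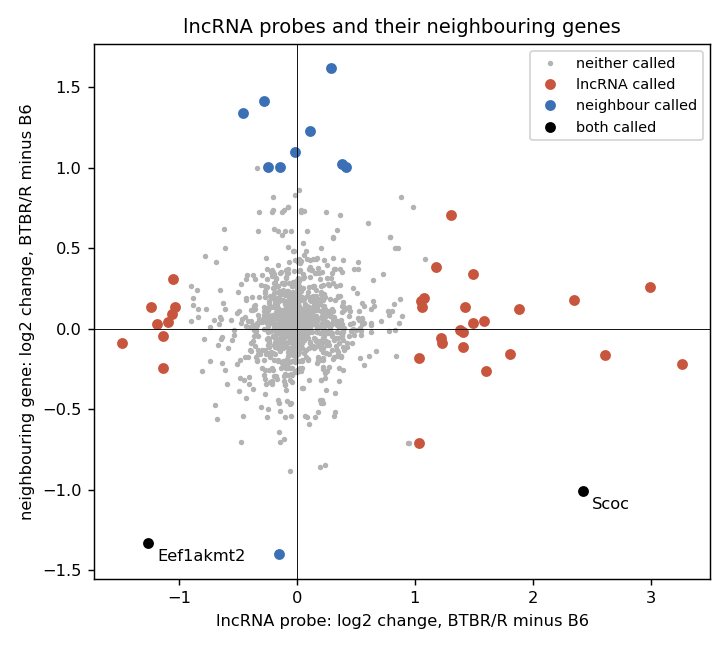
Log2 change (BTBR/R minus B6) of the lncRNA probe (x axis) against that of the neighbouring gene's brightest probe (y axis) in the 1149 pairs detected on all 8 arrays, with 1 point per lncRNA probe. Called lncRNAs are red, called neighbours blue and pairs with both called black; the 2 black points lie near Eef1akmt2, where both fell, and Scoc, where they moved in opposite directions.

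In the first of the 2 pairs with both called, the lncRNA and its neighbour fell together. Eef1akmt2, named Mettl10 in the array's design, encodes a lysine methyltransferase of a translation elongation factor, and its probe measured 1.17, 1.20, 1.21 and 1.21 in B6 mice and -0.05, -0.18, -0.21 and -0.10 in BTBR/R mice (change -1.33 ± 0.05 (SE)). The lncRNA probe in the locus that begins 228 bp beyond it on the same strand, chr7:140018492-140019064 (reverse strand), measured -2.12, -2.04, -2.21 and -2.23 in B6 mice and -3.87, -3.41, -3.21 and -3.15 in BTBR/R mice (change -1.26 ± 0.16 (SE)). Both were lower in every BTBR/R mouse. A second lncRNA probe of that locus, detected in B6 mice only, was at least 1.71-fold lower, and one in a locus 2520 bp from the gene's probe, chr7:140016236-140016772 (reverse strand), at least 2.52-fold lower. The other probe of Eef1akmt2 fell by 1.63. The change in lncRNA minus neighbour was 0.07, given as a description since the pair was chosen for both calls.

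In the second pair the neighbours went opposite ways. Scoc encodes a short coiled-coil protein of the Golgi, and its probe measured 3.79, 3.70, 3.61 and 3.77 in B6 mice and 2.68, 2.70, 2.82 and 2.65 in BTBR/R mice (change -1.01 ± 0.06 (SE)). The lncRNA probe at chr8:85952719-85958369 (reverse strand), whose locus begins 48 bp beyond the probe of Scoc on the same strand, measured -3.61, -2.88, -2.96 and -3.03 in B6 mice and -0.71, -0.67, -0.76 and -0.62 in BTBR/R mice. It rose 5.37-fold (change 2.43 ± 0.16 (SE), limma adjusted p = 2.8e-05) while Scoc fell by a factor of 2.01. Scoc was no longer called when B6 replicate 1 or 4 or BTBR/R replicate 1 or 4 was left out, with a change of -0.98 to -0.99, while the lncRNA stayed called in each. The lncRNA probe on the opposite strand was detected in 1 BTBR/R mouse only and gave no bound. The change in lncRNA minus Scoc was 3.43, again a description.

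An exact two-sided permutation test of the change in lncRNA minus neighbour was run on the 18 leading lncRNAs whose neighbour was detected on all 8 arrays. Of these, 14 were called lncRNAs chosen for their change, the pairs with Eef1akmt2 and Scoc included, and only the other 4, all bright lncRNAs, were chosen without regard to it. For the bright lncRNA near Washc2 the difference was -0.35 and reached the smallest p that 4 mice against 4 allow, 0.029, which was 0.11 after Benjamini-Hochberg adjustment over these 4 pairs, a family chosen after seeing the data in place of all 18 (0.037). Most of that difference lay in the gene, since Washc2 changed by 0.28 ± 0.05 (SE) and the lncRNA by -0.07. The bright lncRNAs near Akap11, Ppm1a and Riok2 had larger p, with differences of -0.17 to 0.05.

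As a measure of well-known lncRNAs on the same arrays, 36 genes were listed, and 29 of them had 71 probes. Of these probes 50 (70.4%) were detected on all 8 arrays, against 32.2% of the intergenic lncRNA probes, and none of the 50 was called, where 2.2% of all probes so detected were. By limma, 26 of the 50 (52.0%) had an unadjusted p below 0.05, against 35.9% of all probes so detected. Their changes ran from -0.65 to 0.48. Meg3, an imprinted lncRNA abundant in neurons, changed by -0.04 to 0.08 over its 5 detected probes, and the brightest probe of Miat, a nuclear lncRNA of neurons, by 0.01. Outside the 50, 8 probes were called higher and 3 lower. Of the 8, 6 were among the 9 known lncRNA probes detected on no array, where 67.7% of all such probes were called higher. The 3 lower ones were all probes of Rmst, an lncRNA of neural progenitors that binds the transcription factor Sox2. The probe of Rmst detected most often measured 0.87, 0.55, 0.66 and 0.41 in B6 mice and -3.40, -3.14, -3.73 and -4.13 in BTBR/R mice, where 2 arrays detected it. The fall was at least 16.98-fold, with a limma adjusted p of 2.3e-05. The 2 Rmst probes detected in B6 mice only were at least 10.6-fold and at least 2.36-fold lower, and the fourth was detected on no array. The first of these overlaps the probe just described and is not independent of it.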

How the data were processed

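RNA of cerebral cortex with striatum from 4 B6 and 4 BTBR/R mice was hybridized to 1-colour Agilent arrays, 1 mouse per array, and samples were grouped by the strain in their labels. The authors deposited spot intensities from Agilent Feature Extraction (version 10.7.3.1 in the submitters' processing notes), in which the processed signal is background-subtracted and the lowest signals are replaced by a surrogate value. They also deposited log2 values, which differed from log2 of the processed signal by 1 constant per array (within 0.01 for 99.97% of probes or more), and other columns with flags, names, positions (mm9) and sequences. Control and outlier spots were left out and spots of a probe averaged. The scaled signal (log2 of the processed signal, less the array's 75th percentile) was fitted with limma 3.58.1 (lmFit, eBayes; R 4.3.3) over 56605 probes with Benjamini-Hochberg adjustment. Calls required an adjusted p below 0.05 together with a 2-fold change. Tested on simulated data for BTBR/R against B6 over 56583 probes, the fit called 97 of 100 probes changed by 1.5 on the log2 scale, 100 of 100 changed by 2.5, and 7 unchanged ones.

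"At least" folds set the mean of the brighter strain against the higher of each dim array's detection limit and its own signal. The limit was the lowest detected signal of each array. These bounds hold for the main processing only, and the floor and normexp gave smaller folds for several probes. Detection limits, not read depth, bound the precision, and 4 arrays per strain limit it further. Neighbouring genes were those of the nearest RefSeq protein-coding probe, read at the gene's brightest probe and named by the GRCm38.p6 gene table (names only). Sequences are the array's own.

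Probes named in the text were, by rule, the 8 largest rises and falls among called lncRNA probes detected on all 8 arrays, up to 4 per direction detected in 1 strain only, the 5 brightest, other probes of their loci, their neighbours, pairs with both called and loci with several called probes. The lncRNA class, lists and rules were chosen with earlier results of these data known. Called probes described at other loci (near Hmgn3, Grk5 and Klf14, for example) were chosen after their values were seen. Alternatives were normexp (offset 50), quantile normalization, median centring, the 75th percentile over detected probes, the authors' log2 values, a fit on probes detected throughout a strain, a floor at the highest detection limit, limma's trend and robust options, the methods' t-test, a replicate block, and each mouse left out. Further steps ran in matplotlib 3.10.9, scipy 1.17.1, pandas 2.3.3, numpy 2.4.6 and Python 3.11.15.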

Additional observations from a re-analysis of the deposited data

Results flagged for a closer look

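Among 32 named lncRNA probes, 64 groups of 4 mice were screened for a mouse far from the other 3, and 1 group was picked out, where chance gives about 1 in 20. For the bright lncRNA probe near P2ry2 (A_30_P01030669), BTBR/R replicate 4 had a scaled signal of 6.35 and the next lowest mouse of its strain 6.50, a gap that was 0.98 of the range of the group.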

How the results depend on the processing

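All 40 called lncRNA probes detected on 8 arrays kept their direction under each alternative. Counts of calls over all lncRNA probes (1032 higher, 100 lower) changed with several alternatives. Probes called higher numbered 22 with normexp, 58 with quantile normalization, 37 in the fit on probes detected throughout a strain and 27 with the floor at the highest detection limit. Probes called lower numbered 10 with normexp and 21 with the floor. Of the 40 called and detected on 8 arrays, 18 were called with normexp and 33 with the floor. Pairs of an lncRNA and a neighbour both called fell from 2 to 1 with normexp, where the lncRNA near Eef1akmt2 was not called, and ranged from 1 to 2 as each mouse was left out, where Scoc fell short of 2-fold in 4 of the 8 fits. By construction, the floor levels all signals under it, and the fit leaves out probes detected throughout neither strain. For the normexp and quantile counts the cause was not tested. With each mouse left out, calls ranged from 944 to 1041 higher and 89 to 102 lower, and from 36 to 43 among those detected on 8 arrays. For the 32 named probes, 555 of 576 alternative values kept the direction and the call, 21 kept only the direction, and none reversed. With normexp 7 named calls were lost, all of them falls, near Eef1akmt2 (2 probes), Rfxank, Slc39a11, Mrpl36, Tcf4 and Zfp273. Leading rises kept their call but were smaller with normexp, for example 1.70 near Slc29a4, 1.55 near Fn1, 1.55 near Wnt7b and 1.69 near Scoc. Replicate numbers did not pair the mice (correlations of same-numbered deviations 0.00, -0.07, -0.04 and 0.16), and with a replicate block 944 probes were called higher and 91 lower. The higher detection limits of the BTBR/R arrays bound what can be said of dim lncRNAs.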
